A study of Mus musculus with 6 samples.

Results

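The unfolded protein and ATF4 response genes are 42 genes whose products fold and clear proteins in the endoplasmic reticulum or restore the amino acid supply of a stressed cell. They were chosen by gene symbol from what the genes are known to do, but with earlier results of these data known. They are 42 of 18193 genes with a symbol of their own on the array. The members were treated as 2 arms of 21 genes each: an endoplasmic reticulum arm of chaperones, protein disulphide isomerases, degradation factors and stress sensors, and an ATF4 arm of transcription factors, feedback regulators, amino acid enzymes, transporters and tRNA synthetases. RNA came from the stria vascularis of mice at postnatal day 10, the vascularised epithelium of the cochlear lateral wall that secretes potassium into the endolymph. There were 3 arrays of Slc26a4 knockout mice (replicates 2, 4 and 6) and 3 arrays of Slc26a4 heterozygous mice (replicates 1, 3 and 5), so the controls lack one working copy too. Slc26a4 encodes pendrin, which exchanges anions across the membrane of cochlear epithelial cells. The study compared the genotypes before hearing starts. The strain, the sex, the deleted part of the gene and whether animals were pooled were not given in the sources used here, and p-values therefore measure the spread between these arrays, which may be technical. Because the stria holds several cell types, fewer cells of a type and less RNA per cell cannot be told apart.

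When misfolded proteins gather in the endoplasmic reticulum, the sensors IRE1 (encoded by Ern1), ATF6 and PERK (encoded by Eif2ak3) are activated. IRE1 splices the Xbp1 transcript, ATF6 is cleaved to a transcription factor, and both raise chaperones such as Hspa5. PERK, and other kinases that sense amino acid shortage, haem shortage or viral RNA, phosphorylate the translation factor eIF2-alpha, which favours translation of Atf4. ATF4 in turn raises genes of amino acid uptake and synthesis, such as Asns, and the transcription factor Ddit3. The array reads the amount of transcript only, not Xbp1 splicing, cleavage of ATF6 or phosphorylation.

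The promoters of the main target genes show how the arms differ in sequence, and those of Hspa5 and Asns are printed as the textbook target of each. The windows run from 250 bases before to 50 bases after the RefSeq start, in build GRCm38.p6, and are read 5′ to 3′ along the gene. Capitals mark the endoplasmic reticulum stress response element (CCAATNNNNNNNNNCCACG) in Hspa5, on chr2:34771840-34772139, plus strand, and the ATF4 composite element (TGATGNAA) in Asns, on chr6:7693160-7693459, minus strand.
Hspa5: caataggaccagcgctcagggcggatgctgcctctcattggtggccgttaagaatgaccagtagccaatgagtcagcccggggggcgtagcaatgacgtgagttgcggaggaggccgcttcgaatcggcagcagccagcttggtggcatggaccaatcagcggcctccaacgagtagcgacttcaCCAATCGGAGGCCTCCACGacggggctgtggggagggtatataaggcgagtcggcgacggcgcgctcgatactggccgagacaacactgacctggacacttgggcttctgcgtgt
Asns: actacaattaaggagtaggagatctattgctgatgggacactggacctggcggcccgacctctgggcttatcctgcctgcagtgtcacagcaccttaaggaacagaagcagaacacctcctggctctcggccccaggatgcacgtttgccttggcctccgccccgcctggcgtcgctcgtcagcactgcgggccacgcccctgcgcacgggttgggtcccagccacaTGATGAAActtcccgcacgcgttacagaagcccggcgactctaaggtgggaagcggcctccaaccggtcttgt

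The element of the endoplasmic reticulum arm was found in 7 of the 18 genes of that arm with a window and in 0 of 19 genes of the ATF4 arm, on either strand. Of all 32851 windows of the table, 0.119% held it. Read along the motif, with its fixed letters in capitals, the sites were as follows, and Hsp90b1 held a pair of them.
Hspa5: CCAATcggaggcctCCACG
Hsp90b1, plus strand of the window: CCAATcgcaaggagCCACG
Hsp90b1, minus strand of the window: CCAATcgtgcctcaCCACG
Dnajc3: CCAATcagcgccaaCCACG
Creld2: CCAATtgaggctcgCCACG
Pdia6: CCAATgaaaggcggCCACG
Calr: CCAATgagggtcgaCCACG
Canx: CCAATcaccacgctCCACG

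The composite element of the ATF4 arm was found in 6 of the 19 ATF4 arm genes with a window (Aars, Asns, Atf3, Chac1, Nupr1 and Trib3) and in 1 of the 18 of the other arm (Herpud1), against 3.97% of all windows. The short motif CCACG, which is also the end of the first element, was in 15 of 18 and 13 of 19 genes and in 32.8% of all windows. These matches are letters in a window and do not show that a factor binds there.

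The arrays of this series had been scaled to one level, and 1 of them stood apart. Knockout replicate 4 correlated with the other arrays at Pearson's r between 0.914 and 0.949 over 27022 probe sets on the log2 scale, while pairs among the others reached 0.986. Its control ratio of the 3′ to the 5′ probe set of actin was 4.48, against 2.42 to 3.15 elsewhere, and its Cre spike-in signal was 24095, against 16715 to 18412. Endothelial markers, of which 7 of 7 were measured and none was at 0, summed to a signal of 2581 there, within a range of 2581 to 8319 in knockout and 5206 to 9444 in heterozygous samples. Knockout replicate 6 was the only array with a high Xist signal (4919, against 19.3 to 83.1) and a low signal of the Y-linked Eif2s3y (6.98, against 2835 to 5264). By these genes its RNA was female and that of the other arrays male, so sex was not balanced between the genotypes. The part of sex in the differences was not tested. The targeted gene had signals of 75.5, 106 and 154 in knockout and of 221, 248 and 1006 in heterozygous samples, with a log2 difference of -1.69 ± 0.50 (SE, limma adjusted p = 0.371) and no overlap. Without heterozygous replicate 5, the highest, the difference was -1.02. Of the defining markers of the stria, 6 of 6 for marginal, 8 of 9 for intermediate and 5 of 5 for basal cells passed the filter and none was at 0.

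No member differed between the genotypes past the threshold. Of the 97 probe sets of the 42 genes, 88 passed the filter on dim signal and were tested, and each gene kept at least 1. In limma, 0 of these 88 had an adjusted p under 0.05, with a lowest value of 0.371, and over all tested probe sets 1 of 27022 was called (0.0037%). At an unadjusted p under 0.05 there were 5, of which 2 were lower and 3 higher in knockout samples, where 8.04% of all tested probe sets with 1 gene symbol lay. The 2 lower ones were both probe sets of Asns, and the 3 higher ones belonged to Calr, Ern1 and Phgdh. The 9 probe sets left out were second or further ones of 6 genes and had mean signals of at most 29.2.

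**Figure D1:**
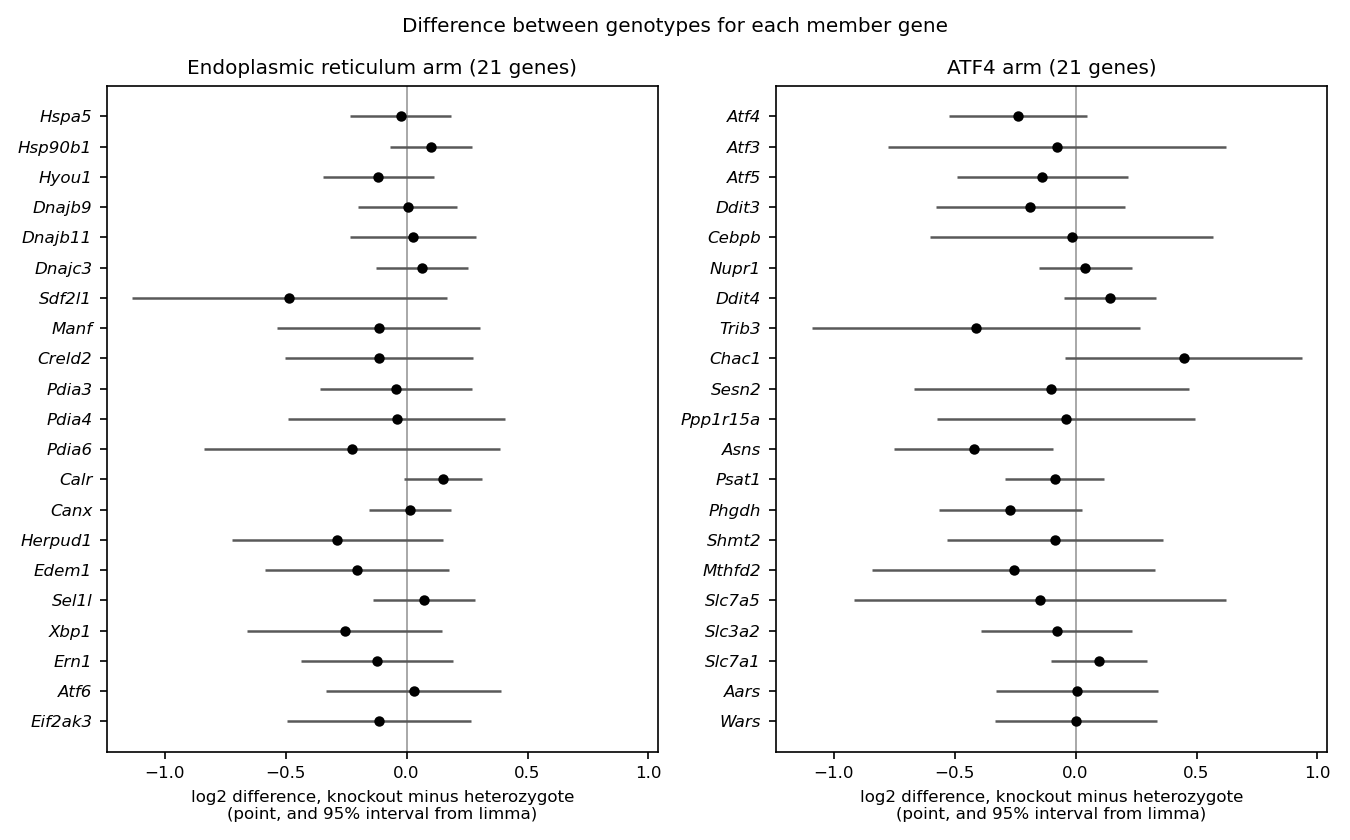
Log2 difference (x axis, knockout minus heterozygote, on the log2(signal + 16) scale) for each of the 42 genes (y axis), with points for the estimate and lines for the 95% interval from limma, 3 arrays a group. The line of Asns is the only one that leaves out 0, and those of Sdf2l1 and Trib3 alone reach below -1.

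How far the genes could have moved is shown by the intervals. With the brightest tested probe set standing for a gene, the 95% interval of the log2 difference lay within 1 of 0, that is within a 2-fold change, for 20 of 21 genes in each arm, against 87.3% of all 12421 genes. It lay within 0.5 of 0 for 14 genes of the endoplasmic reticulum arm and 8 of the ATF4 arm, against 35.1% of all genes. The exceptions at the wider limit were Sdf2l1, with an interval from -1.14 to 0.17, and Trib3, from -1.09 to 0.27. The median difference was -0.044 in the endoplasmic reticulum arm and -0.085 in the ATF4 arm, beside -0.038 over all genes. In these arms 13 of 21 and 15 of 21 genes had a negative difference, as did 56.9% of all genes. With array weights, which count deviating arrays less, these were 8 and 13 of 21, with medians of 0.032 and -0.028, beside 52.3% of all genes. Median centring gave 21 and 20 of 21, beside 84.7% of all genes.

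**Figure D2:**
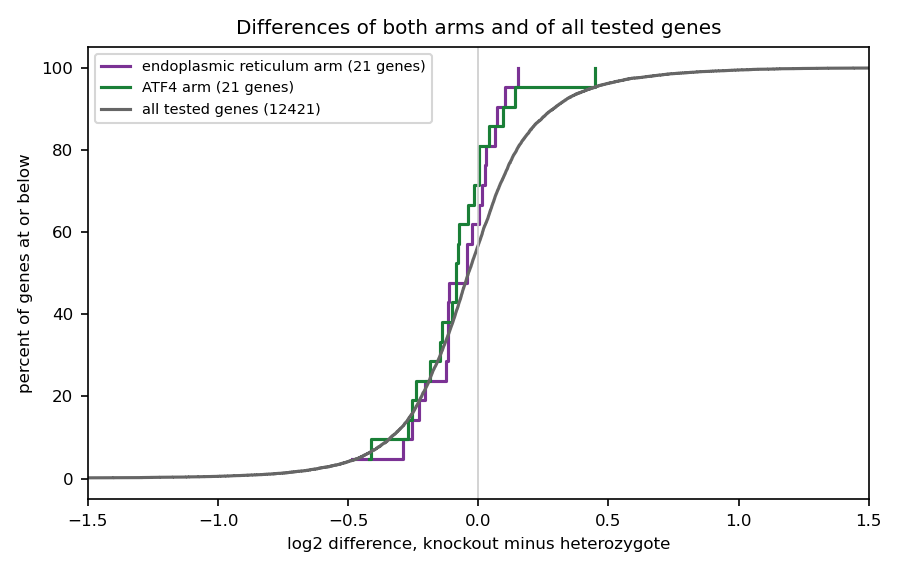
Cumulative share of genes (y axis, percent) by log2 difference, knockout minus heterozygote (x axis, cut at 1.5 in size), for the endoplasmic reticulum arm, the ATF4 arm and all 12421 tested genes. Both arms run close to the curve of all genes around their medians of -0.044 and -0.085.

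The main chaperones of the endoplasmic reticulum stood at nearly the same level in both genotypes. Hspa5, the Hsp70 chaperone BiP that also holds the sensors inactive, had signals of 7134, 5861 and 6477 in knockout and of 6868, 6154 and 6732 in heterozygous samples. The groups overlapped throughout, and the log2 difference was -0.024 with a 95% interval from -0.23 to 0.19. Its second bright probe set gave -0.023. Hsp90b1, the Hsp90 chaperone of the same compartment, had 6373, 6097 and 6292 in knockout and 6026, 5673 and 5785 in heterozygous samples. Each knockout sample lay above each heterozygous one, but the difference was only 0.10 ± 0.076 (SE, limma adjusted p = 0.639), and the other probe set of the gene gave -0.12. Median centring turned it to -0.10.

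The partners of Hspa5 followed the same picture. The J-domain cochaperones Dnajb9, Dnajb11 and Dnajc3 had log2 differences of 0.0040, 0.025 and 0.062. The dimmer probe sets of Dnajc3 gave -0.069, -0.025, -0.20 and -0.51. Hyou1, the exchange factor that frees Hspa5 from its nucleotide, stood at -0.12, and so did Creld2 and Manf, a pair of small stress-induced proteins that can be secreted. Sdf2l1, which works in a complex with Dnajb11, had signals of 929, 364 and 607 in knockout and of 871, 733 and 906 in heterozygous samples. Knockout replicates 4 and 6 were below all heterozygous samples and replicate 2 was above them. Its difference of -0.49 ± 0.29 (SE, limma adjusted p = 0.552) was the lowest of the arm, and it was -0.15 without knockout replicate 4.

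The disulphide isomerases, which form and reshuffle disulphide bonds, had differences of -0.044 (Pdia3), -0.042 (Pdia4) and -0.23 (Pdia6). Pdia6 had 707 in knockout replicate 4 against 1213 to 1602 on the other arrays, and its difference was 0.14 without that array. The lectin chaperone Calr, which binds glycoproteins and calcium, had the smallest p of the arm on the probe sets that stood for the genes. Its signals were 10487, 11333 and 9968 in knockout and 9303, 9342 and 9959 in heterozygous samples. The groups did not overlap, although 9968 and 9959 all but met, and the difference was 0.15 ± 0.072 (SE, limma adjusted p = 0.452). Its other probe sets gave 0.10 and 0.19, and centring the arrays on their median turned the difference to -0.049. The membrane-bound relative Canx stood at 0.015, while its dimmer probe sets gave -0.20 and -0.32.

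The 3 degradation factors had a median of -0.21 with 2 lower, and the sensors with Xbp1 a median of -0.12 with 3 of 4 lower, beside 56.9% of all genes. Without knockout replicate 4 these medians were -0.078 and -0.00034, with 2 of the 4 sensor genes lower. Edem1, which helps to pick out glycoproteins for degradation, had 448, 383 and 428 in knockout and 496, 492 and 469 in heterozygous samples, with no overlap and a difference of -0.21 ± 0.17 (SE, limma adjusted p = 0.677). Herpud1, a membrane protein of the degradation complex, had 2935, 1649.6 and 2228 in knockout and 2600.3, 2436 and 3112 in heterozygous samples, a difference of -0.29 ± 0.20 (SE, limma adjusted p = 0.606) with overlapping groups. It was -0.49 without knockout replicate 2 and -0.078 without knockout replicate 4, the lowest array. Sel1l, the adaptor of the ubiquitin ligase of that complex, had 0.072 on its brightest probe set and -0.33, -0.48, -0.074 and 0.19 on the others. Xbp1 had 2938, 1795 and 2862 in knockout and 3102.5, 2722 and 3057 in heterozygous samples. Only knockout replicate 4 lay below all heterozygous samples, and the difference of -0.26 ± 0.18 (SE, limma adjusted p = 0.620) became -0.027 without it. The sensors gave -0.12 (Ern1), 0.029 (Atf6) and -0.11 (Eif2ak3). A dim probe set of Ern1 (1438583_at) gave 0.85, with signals of 93.9, 220.3 and 83.1 in knockout and of 66.0, 49.4 and 65.7 in heterozygous samples, while the bright one did not, so the probe sets of Ern1 disagree.

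Groups that did not overlap were about as frequent among the members as among all genes. In the endoplasmic reticulum arm knockout samples lay wholly below in 1 of 21 genes (Edem1) and wholly above in 2 (Calr and Hsp90b1). Of all genes 7.04% and 6.07% did so. The ATF4 arm had the same counts, with Asns below and Chac1 and Ddit4 above. At an unadjusted p under 0.05 lay 1 member gene, Asns, of the 42, against 6.44% of all genes, 3.23% lower and 3.21% higher.

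**Figure D3:**
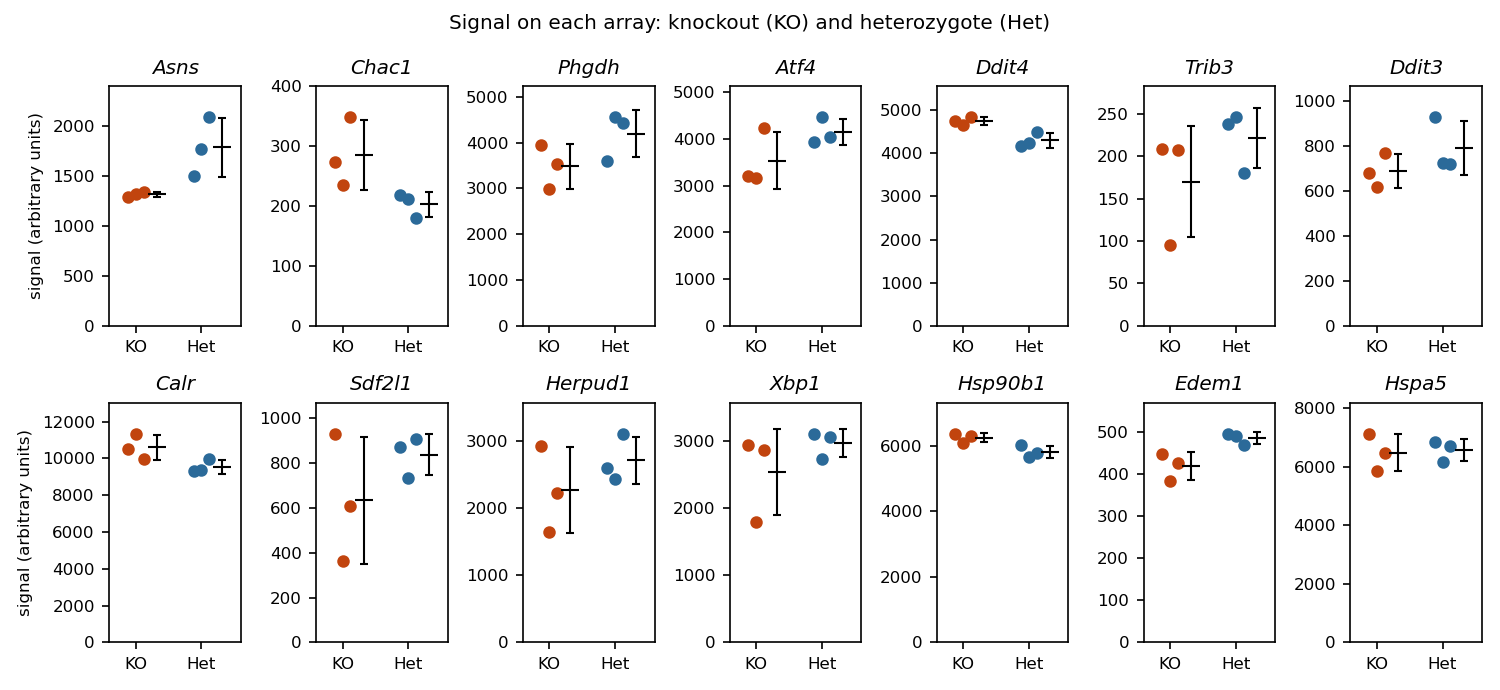
Signal on the linear scale (y axes, starting at 0, arbitrary units) of the 14 genes given array by array, in knockout (KO) and heterozygous (Het) samples. Each point is 1 array and the black mark is the mean with its SD (n = 3). The knockout points of Asns lie close together below the 3 heterozygous points, and those of Hspa5 overlap with them.

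Asns stood first among the members by p and was lower in knockout samples on both of its probe sets. Since the members were chosen with earlier results of these data known, this rank is no independent support. Asns encodes asparagine synthetase, whose transcript rises with ATF4 when amino acids run short. On the brighter probe set the signals were 1296, 1317 and 1344 in knockout and 1499, 1775 and 2089.8 in heterozygous samples. On the other they were 848, 746 and 803 in knockout and 931, 1039 and 1219 in heterozygous samples. The knockout values were all below the heterozygous ones on each, and the heterozygous ones were the more spread out. The mean was 1319 ± 24.0 in knockout and 1788 ± 296 in heterozygous samples (SD, n = 3 each). This made the log2 difference -0.42 ± 0.15 (SE), or 0.746-fold, with a 95% interval from -0.75 to -0.092. With an adjusted p of 0.373 from limma it missed the threshold, as did the dimmer probe set with -0.40 and an adjusted p of 0.389. Without heterozygous replicate 5, the highest sample, the difference was -0.30, and leaving out any other array kept it between -0.54 and -0.41.

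The transcription factors of the ATF4 arm did not differ past the threshold. Atf4 itself had 3211, 3163 and 4227 in knockout and 3936, 4458 and 4031 in heterozygous samples, so knockout replicates 2 and 4 were below and replicate 6 was among the heterozygous samples. The difference was -0.24 ± 0.13 (SE, limma adjusted p = 0.50) on this probe set and -0.081 on the other one tested. Since the protein is controlled in translation, its transcript level is only part of its activity. Ddit3, the pro-apoptotic factor CHOP, had 677, 618 and 768 in knockout and 926, 721 and 716 in heterozygous samples, a difference of -0.19 ± 0.17 (SE, limma adjusted p = 0.721), against 0.36 on a dimmer probe set. The relatives Atf5 and Atf3 had -0.14 and -0.076, Cebpb, a partner of both ATF4 and CHOP, had -0.016, and the stress-induced cofactor Nupr1 had 0.040.

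Among feedback regulators and effectors, Chac1 had the highest difference of all members. It encodes an enzyme that breaks down glutathione and is a target of the ATF4 and CHOP axis. Its signals were 273, 235 and 348 in knockout and 218, 212 and 179.6 in heterozygous samples, without overlap, a difference of 0.45 ± 0.22 (SE, limma adjusted p = 0.460). Ddit4, an inhibitor of the growth kinase mTORC1, had 4741, 4648 and 4832 in knockout and 4160.5, 4238 and 4488 in heterozygous samples, again without overlap, a difference of 0.14 ± 0.085 (SE, limma adjusted p = 0.547) that was -0.057 after median centring. Trib3, a pseudokinase that restrains ATF4, pointed the other way, with 208, 94.8 and 207 in knockout and 238, 246 and 180.5 in heterozygous samples. The groups overlapped, and the difference of -0.41 ± 0.30 (SE, limma adjusted p = 0.636) became -0.073 without knockout replicate 4. Sesn2, a leucine sensor that restrains mTORC1, had -0.10, and Ppp1r15a, which brings the phosphatase to eIF2-alpha, had -0.040. Thus the 3 members of the arm that differed most in either direction, Chac1, Asns and Trib3, did not share a sign, and none passed the test.

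The enzymes of amino acid and one-carbon synthesis had negative differences in 5 of 5 genes, 1 of them at an unadjusted p under 0.05, where over all genes 56.9% were lower and 3.23% lower at that p. The count was 4 of 5 either without knockout replicate 4 or when all tested probe sets of a gene were averaged. After Asns came Phgdh, the first enzyme of serine synthesis, with 3941, 2977 and 3522 in knockout and 3606, 4552 and 4423 in heterozygous samples. The groups overlapped through knockout replicate 2 and heterozygous replicate 1, and the difference was -0.27 ± 0.13 (SE, limma adjusted p = 0.464). Psat1, the next enzyme of that path, had -0.087, and the mitochondrial one-carbon enzymes Shmt2 and Mthfd2 had -0.085 and -0.26. Of the amino acid transporters, the light chain Slc7a5 and its partner Slc3a2, which together exchange large neutral amino acids, had -0.15 and -0.078, and the carrier of basic amino acids Slc7a1 had 0.095. Slc7a5 was the most uneven, with 1066 in knockout replicate 4 and 3468 in knockout replicate 6. The alanine and tryptophan tRNA synthetases Aars and Wars had 0.0040 and 0.0011.

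The probe sets of Phgdh did not agree. One of the 4 with this symbol alone (1454714_x_at) had signals of 3362, 2445 and 2672 in knockout samples and of 2720.0, 103 and 85.2 in heterozygous replicates 1, 3 and 5. Heterozygous replicates 3 and 5 thus stood far below the other 4 arrays, with heterozygous replicate 1 at the knockout level. The log2 range of 4.76 over the heterozygous arrays was the second largest of all 27022 tested probe sets, against a median of 0.33. The brightest probe set had its 2 highest signals on these same arrays. The suffix of these probe sets marks probes that may also match other transcripts, and the annotation lists Phgdh together with Gm6756 and with Gm8096 on further probe sets, so the value of this probe set cannot be assigned to Phgdh alone. It gave a difference of 3.13 ± 1.0 (SE, limma adjusted p = 0.371) with all arrays. Without heterozygous replicate 1 the difference was 4.68 (limma adjusted p = 2.2e-04), the only call of a member in any of the settings tried.

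**Figure D4:**
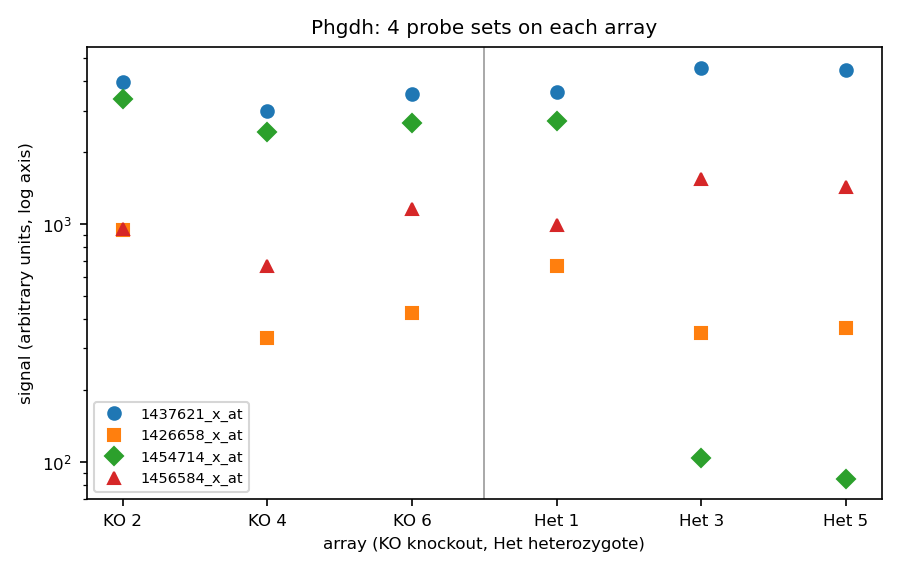
Signal (y axis, log scale, arbitrary units) of the 4 probe sets named Phgdh on each array (x axis, knockout KO and heterozygous Het). The probe set 1454714_x_at stands at 103 and 85.2 on heterozygous replicates 3 and 5 and above 2400 on the other arrays, while 1437621_x_at stays between 2977 and 4552.

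Probe sets of other members also pulled apart. Of the 27 genes with several tested probe sets, 14 had some on either side of 0. In the others all tested probe sets had the same sign. They were below 0 for Hspa5, Pdia3, Pdia6, Herpud1, Edem1, Xbp1, Atf4, Trib3, Asns, Psat1 and Mthfd2, and above 0 for Calr and Nupr1. Xbp1 lay between -0.36 and -0.26 on its 4 probe sets.

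Many members had their lowest signal on knockout replicate 4. In the endoplasmic reticulum arm 15 of 21 genes, or 71.4%, had their lowest signal on this array, as did 10 of 21, or 47.6%, in the ATF4 arm and 36.2% of all genes. The median log2 deviation of the arm from the mean of the 6 arrays was 0.12, -0.17 and 0.033 in knockout replicates 2, 4 and 6, and 0.089, -0.030 and 0.045 in heterozygous replicates 1, 3 and 5. For the ATF4 arm it was 0.0094, -0.21 and 0.080 in knockout and 0.030, 0.0023 and 0.031 in heterozygous samples. Over all genes it was -0.073 in knockout replicate 4. Besides Sdf2l1, Pdia6, Xbp1 and Trib3, several members lay below all the other arrays there. Among them were Slc7a5 (1066 against 1786 to 3468), Herpud1 (1649.6 against 2228 to 3112) and Pdia4 (1269 against 1532 to 2225). Over all genes this array also held the highest signal most often, for 2825 of 12421, but for only 2 of 21 genes in each arm. Without this array the medians were 0.048 and 0.012 and 6 and 9 genes of 21 were lower in knockout samples, in place of 13 and 15, beside a median of -0.0022 over all genes. The high actin ratio, the high spike-in signal and the low endothelial sum of this array, given above, moved with these values, and their part in them was not tested. Immediate early genes, which respond quickly to many stimuli, had a median deviation of -0.17 on this array and of 0.33 on knockout replicate 6, over 11 genes.

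**Figure D5:**
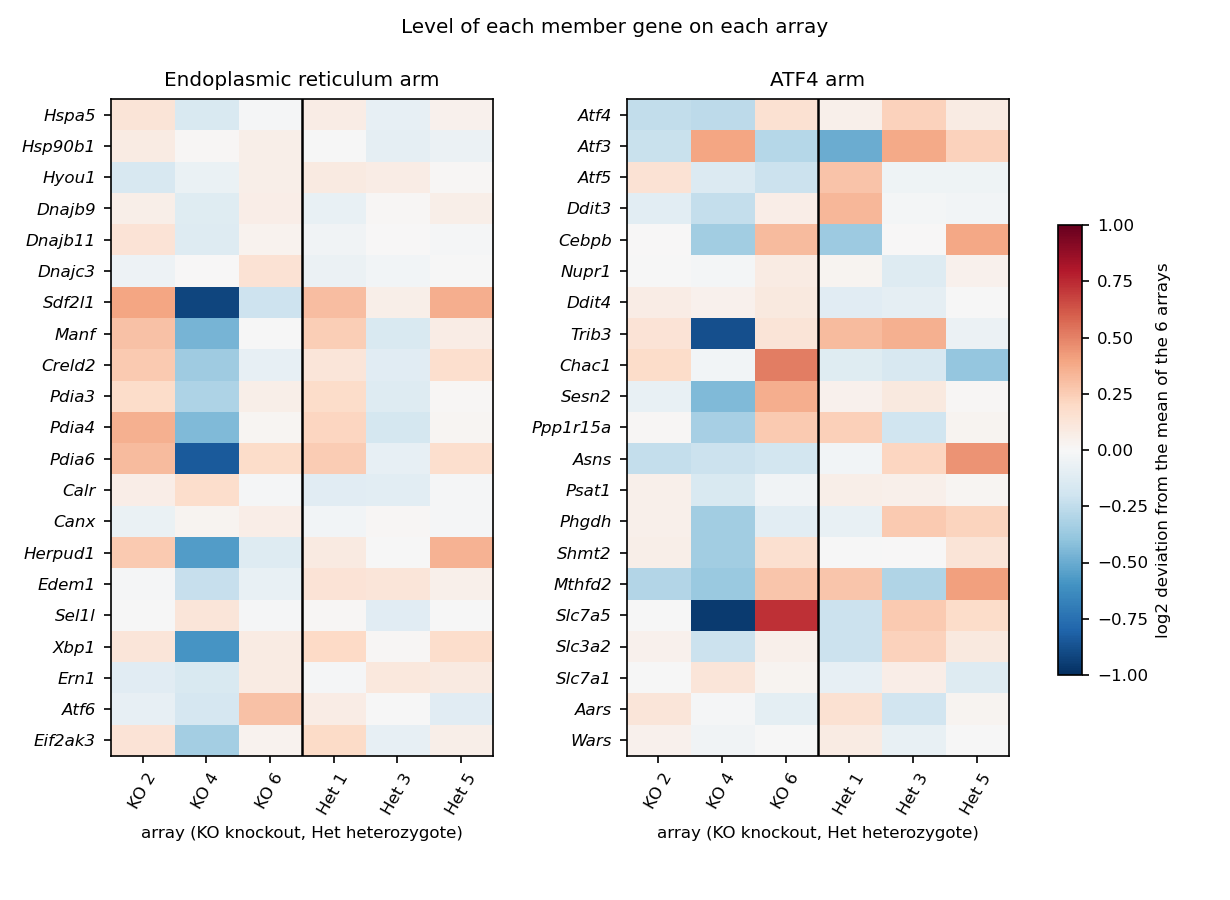
Log2 deviation of each gene from its mean over the 6 arrays (colour, blue below and red above), for the 21 genes of each arm (rows) on the knockout (KO) and then the heterozygous (Het) arrays (columns). The column of knockout replicate 4 holds the darkest blue cells, as for Sdf2l1, Pdia6, Trib3 and Slc7a5, while Asns is blue on all 3 knockout arrays.

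Other genes of the endoplasmic reticulum pathway gave a like picture. Of 43 with a symbol on the array 42 were tested, with a median of -0.023, 25 lower and 17 higher, and 0 past the adjusted threshold. At an unadjusted p under 0.05 there was 1 lower (Sil1) and 0 higher, beside 3.23% and 3.21% of all genes. Without knockout replicate 4 the median was 0.056, with 13 lower and 29 higher, beside 50.6% of all genes lower. Sil1, an exchange factor of Hspa5, had 1867, 1442.5 and 1749.6 in knockout and 2060.3, 2132 and 2079.6 in heterozygous samples. The groups did not overlap, and the difference was -0.32 ± 0.13 (SE, limma adjusted p = 0.401). Next on the lower side came the prolyl isomerase Fkbp11 (-0.57) and the disulphide oxidase Ero1b (-0.38), which were -0.28 and -0.17 without knockout replicate 4. On the higher side came the translocon-associated Ssr3 (0.14), the translocation factor Sec62 (0.12) and the disulphide isomerase P4hb (0.13).

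Among other genes of the ATF4 pathway 23 of the 30 tested were lower and 7 higher, with a median of -0.14, beside 56.9% lower and a median of -0.038 over all genes, and 0 passed the adjusted threshold. Without knockout replicate 4 there were 22 lower and 8 higher, with a median of -0.081, beside 50.6% of all genes lower. Without heterozygous replicate 5 there were 20 lower and 10 higher, with a median of -0.092, beside 56.4% of all genes lower. At an unadjusted p under 0.05 lay 2 lower and 0 higher, beside 3.23% and 3.21% of all genes. Eif2ak1, the eIF2-alpha kinase that senses haem, had 1065, 1074 and 1208 in knockout and 1348, 1558 and 1559 in heterozygous samples, without overlap, a difference of -0.41 ± 0.14 (SE, limma adjusted p = 0.371). Leaving out 1 array kept this difference between -0.48 and -0.38, but over all processing alternatives, described below, it ranged from -0.61 to -0.031. Eif4ebp1, a repressor of cap-dependent translation and an ATF4 target, had 382, 351 and 498 in knockout and 597, 629.5 and 535 in heterozygous samples, also without overlap, a difference of -0.51 ± 0.19 (SE, limma adjusted p = 0.374). Over the same alternatives Eif4ebp1 ranged from -0.71 to -0.41. The glutamine transporter Slc38a2 had -0.34, with a range of -0.54 to -0.067. The highest by p were Aldh18a1 of proline synthesis (0.17), the one-carbon enzyme Mthfd1l (0.16) and the tRNA synthetase Eprs (0.085).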

How the data were processed

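Total RNA was hybridised to Affymetrix mouse expression arrays after NuGEN Ovation amplification, per the labels. The deposited values are linear signal intensity per probe set from GCOS, per the submitters' processing notes, which name no version. The deposited signal, trimmed by 2% at both ends, averaged 500.002 on all arrays, which shows a scaling before deposit. Their number limits the precision. The 64 control probe sets were left out. Signal was taken as log2(signal + 16), which understates changes of dim genes, and probe sets with a mean signal under the 40th percentile (46.3) were removed, which left 27022 of 45037. These were fitted with limma 3.58.1 in R 4.3.3 (variance trend, two-sided, Benjamini-Hochberg over all tested probe sets, threshold 0.05). Intervals are the 95% intervals of the fit. Symbols came from the platform annotation (34945 probe sets with 1 symbol, 932 with several, 9160 with none), all 42 members matched the RefSeq table of GRCm38.p6 by gene identifier, and 37 had a promoter window there. The brightest tested probe set stood for a gene.

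The members, the pathway and marker lists and the tests were chosen with earlier results of these data known. Values by array are given for the 6 genes of each arm with the smallest p and for 5 fixed genes (Hspa5, Xbp1, Atf4, Ddit3, Asns). Of other pathway genes, up to 3 a direction by p are named. Further genes and probe sets given array by array were chosen after their values were seen. Alternatives were other offsets, normalisations, filters, variance models, ways to sum up probe sets and leaving out each array. Figures were drawn with matplotlib 3.10.9.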

Additional observations from a re-analysis of the deposited data

How the results depend on the processing

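No paired analysis was made because the labels give no pairing of the arrays. Under the 18 alternatives no member gene passed the adjusted threshold (lowest adjusted p 0.147 in limma), and 11 of the 42 kept their sign throughout while 31 turned in at least 1. Asns ranged from -0.62 to -0.30. The count of member probe sets past the threshold was 0 to 1 when 1 array was left out. With all arrays and the settings first described, it was also 0 at an adjusted p under 0.1. Median centring moved the median of all genes to -0.24 from -0.038, and the medians of the endoplasmic reticulum and ATF4 arms to -0.24 and -0.28, so the distance of each arm from all genes was unchanged (-0.0060 and -0.047). Leaving out 1 array gave arm medians of -0.11 to 0.048 and of -0.18 to 0.012. Genes at an unadjusted p under 0.05 numbered 1 in the endoplasmic reticulum arm and 4 in the ATF4 arm after median centring, and 2 in the ATF4 arm with no variance trend, with array weights or with the mean of probe sets. They numbered 0 to 2 in either arm when 1 array was left out. No share of all genes at that p is given for these alternatives, so the counts are not read as a result about the arms. After median centring 84.7% of all genes were lower in knockout samples. The whole table held 23 called probe sets with array weights, 13 without knockout replicate 4, 11 with 1 probe set per gene and 0 to 3 otherwise. The filter at the 60th percentile left 19 genes of the ATF4 arm.

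Signs turned as follows, and except for median centring, which shifts every probe set, the cause was not tested. Quantile normalisation gave -0.018 for Dnajb9, -0.046 for Canx, -0.00059 for Nupr1 and -0.017 for Mthfd1l. Median centring gave -0.10 for Hsp90b1, -0.20 for Dnajb9, -0.17 for Dnajb11, -0.14 for Dnajc3, -0.049 for Calr, -0.18 for Canx, -0.13 for Sel1l, -0.17 for Atf6, -0.16 for Nupr1, -0.057 for Ddit4, -0.10 for Slc7a1, -0.20 for Aars and -0.20 for Wars. It also gave -0.034 for Aldh18a1, -0.042 for Mthfd1l, -0.11 for Eprs, -0.063 for Ssr3, -0.083 for Sec62 and -0.071 for P4hb. Array weights gave 0.035 for Hspa5, 0.066 for Manf, 0.086 for Pdia3, 0.15 for Pdia4, 0.032 for Pdia6, -0.0058 for Canx, 0.0037 for Eif2ak3, 0.061 for Ppp1r15a and 0.017 for Slc7a5. Averaging all tested probe sets of a gene gave -0.010 for Hsp90b1, 0.067 for Hyou1, -0.15 for Dnajc3, -0.17 for Canx, -0.13 for Sel1l, 0.36 for Ern1, -0.0016 for Atf6, 0.085 for Ddit3, 0.074 for Sesn2, 0.64 for Phgdh, -0.021 for Aars, -0.14 for Wars and -0.077 for Eprs. Leaving out 1 array gave ranges of -0.094 to 0.048 for Hspa5, -0.032 to 0.064 for Dnajb9, -0.037 to 0.10 for Dnajb11, -0.29 to 0.089 for Manf, -0.28 to 0.032 for Creld2, -0.15 to 0.10 for Pdia3, -0.23 to 0.17 for Pdia4, -0.44 to 0.14 for Pdia6, -0.015 to 0.053 for Canx, -0.11 to 0.12 for Atf6 and -0.21 to 0.027 for Eif2ak3. For the ATF4 side the ranges were -0.34 to 0.10 for Atf3, -0.20 to 0.17 for Cebpb, -0.015 to 0.071 for Nupr1, -0.18 to 0.12 for Ppp1r15a, -0.31 to 0.095 for Sesn2, -0.19 to 0.068 for Shmt2, -0.55 to 0.29 for Slc7a5, -0.20 to 0.019 for Slc3a2, -0.089 to 0.081 for Aars, -0.037 to 0.041 for Wars and -0.0014 to 0.20 for Eprs.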

Other observations

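The tRNA synthetases, of which Aars and Wars are members, were looked at as a whole family after their values were seen. Of the cytosolic ones, Sars, Iars, Gars, Nars, Mars1, Tars, Yars, Cars, Eprs and Lars were already among the other ATF4 pathway genes above. The counts of the cytosolic synthetases and of those pathway genes thus share genes and are not separate results. Of the 19 cytosolic synthetases tested, 15 had a lower level in knockout samples, with a median log2 difference of -0.15, and of the 16 mitochondrial ones 11 did, with a median of -0.18, beside 56.9% lower and a median of -0.038 over all genes. Without knockout replicate 4 the medians were -0.062 and -0.015, with 13 of 19 and 10 of 16 lower, beside 50.6% of all genes. None had an adjusted p under 0.05 in limma, and none an unadjusted p under 0.05. Of the cytosolic ones the lowest was Farsb, a subunit of the phenylalanine enzyme, at -0.48 (limma adjusted p = 0.434), and Aars and Wars, at 0.0040 and 0.0011, were among the 4 that were not lower.

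Of the marker lists, that of osteoblasts and osteocytes, of which osteoblasts have much secretory endoplasmic reticulum, had a median of 1.13 over 6 genes. It was 1.01 without knockout replicate 4. At an unadjusted p under 0.05 lay 4 of the 6, all higher in knockout samples, where 3.21% of all genes were higher at that p. Sp7 (0.73) was not among them, and Alpl stood at -0.11. No gene of the list passed the adjusted threshold (lowest adjusted p 0.371 in limma). The median deviation of the list was -0.0047, 0.96 and 0.83 in knockout replicates 2, 4 and 6. It was -1.04, -0.55 and -0.014 in heterozygous replicates 1, 3 and 5, so knockout replicate 2 and heterozygous replicate 5 were alike. The summed signal of the list was 7708 to 13167 in knockout and 3959 to 8088 in heterozygous samples, over 7 of 9 genes with a symbol on the array and none at 0. Over plasma and B cells, of which plasma cells are also rich in this compartment, only 2 of 8 genes passed the filter. The 7 genes with a symbol on the array summed to a signal of 253 to 356 in knockout and 245 to 308 in heterozygous samples. The medians of the other lists were -0.035 for marginal, -0.25 for intermediate and 0.0098 for basal cells, -0.82 for root, spindle and outer sulcus cells (Slc26a4 itself at -1.69, Epyc -1.0, Lgr5 -0.65 and Anxa1 0.20), 0.21 for fibrocytes, 0.10 for macrophages, -0.29 for endothelial cells and -0.058 for immediate early genes. Erythrocyte markers had 1 tested gene (-0.56).

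A probe set outside the members (1456471_x_at), whose annotation lists both Gm6756 and Phgdh, repeated the pattern of the odd Phgdh probe set. It had 954, 787 and 1162 in knockout samples and 1089, 151 and 149 in heterozygous replicates 1, 3 and 5. The other probe set with a second symbol beside Phgdh (1426657_s_at) had 1056, 378 and 879 in knockout and 1156, 958 and 1166 in heterozygous samples.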
